A study of Mus musculus with 6 samples.

Results

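The regulators described here are 11 transcription factors and coactivators of the smooth muscle phenotype: Myocd, Mrtfa, Mrtfb, Srf, Elk1, Mef2a, Mef2c, Gata6, Klf4, Klf5 and Tcf21. They were found by gene symbol among the 55341 genes of the deposited read-count table, the myocardin-related factors under the names Mrtfa and Mrtfb. All 11 were present and all 11 passed the filter on low counts, which left 16017 genes. They were chosen by their role and with the levels of Myocd in these same libraries known. Fold changes between the genotypes are therefore given as a description. Tests of the members appear only as counts beside those of all genes tested, and nothing is read from them.

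RNA was sequenced from the aortic arch and thoracic aorta of 3 miRNA-26b-/- and 3 miRNA-26b+/+ mice, 1 library per mouse, with libraries M2626, M2627 and M2628 in the first group and M2629, M2630 and M2631 in the second. All mice were 8 weeks of age on a chow diet, had no further treatment in the sources used here, and carry the strain label C57BL/6NCrl. The knockout allele was made in embryonic stem cells of a 129/Sv line, with loxP sites around the miRNA in an intron of Ctdsp1, and deleted with tamoxifen and CreERT2, after which the Cre gene was bred out, and the promoter of the Cre is not given in the sources used here. The libraries held between 25706728 and 33345037 counts in exons, and the hairpin gene Mir26b received 0 counts in each miRNA-26b-/- library and 0, 20 and 0 in the miRNA-26b+/+ libraries, too few to check the genotypes. The labels call the material aortic endothelial cells, whereas the smooth muscle markers were far above the endothelial ones: Acta2 averaged 7360 CPM per kb (CPM being counts scaled to library size, here per kilobase of exon) and Myh11, the smooth muscle myosin heavy chain, 1265, against 74.5 for Pecam1 and 24.1 for Vwf. Levels below therefore refer to the vessel wall as a whole.

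Serum response factor (SRF) binds the CArG box, a short element in the promoters of contractile genes and of immediate early genes. Which of these it activates depends on its partners. Myocardin and the myocardin-related factors MRTF-A and MRTF-B direct SRF to contractile and cytoskeletal genes, and MRTFs are set free for this when actin polymerises. The ternary complex factor ELK1, phosphorylated by MAP kinases, competes for the same surface of SRF and directs it to immediate early genes. MEF2 factors and GATA6 act with this network, KLF4 and KLF5 oppose or rewire it when smooth muscle cells leave the contractile state, and TCF21 marks progenitors of adventitial and epicardial origin.

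A miRNA acts on its target mRNAs mainly through short matches to its seed in their 3′ UTRs, so the mature sequences are shown first with the seed (bases 2 to 8) in capitals. They are RefSeq entries on GRCm38.p6, where miR-26b-5p lies at chr1:74394324-74394344 and miR-26b-3p at chr1:74394360-74394381 on the forward strand. The other arms shown, miR-26a-5p and miR-26a-2-3p, come from other genes and are included because they have the same seeds as miR-26b-5p and miR-26b-3p.
miR-26b-5p: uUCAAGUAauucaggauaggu
miR-26b-3p: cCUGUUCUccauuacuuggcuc
miR-26a-5p: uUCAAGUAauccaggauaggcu
miR-26a-2-3p: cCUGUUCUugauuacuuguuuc

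Matches were searched, on the sense strand only, in the longest annotated 3′ UTR of each gene (GENCODE M21, GRCm38). All 11 members had one, and 13541 of the genes tested did. No member held the 8-base match to miR-26b-5p, TACTTGAA, which was present in 5.09% of the genes. The 7-base matches TACTTGA and ACTTGAA lie inside the 8-base one, and 5 of the 11 members (Myocd, Mrtfb, Mef2c, Klf4 and Tcf21) held at least one of the 3 forms, against 22.2% of the genes. The 8-base match to miR-26b-3p, AGAACAGA, was present in 3 members (Myocd, Mef2a and Klf4), against 6.34% of the genes. The 7-base match AGAACAG, which lies inside it, was present in the same 3 members, against 18.7% of the genes. Srf, Elk1, Mrtfa, Klf5 and Gata6 held none of them. The members' UTRs differ in length, from 754 bases in Srf to 4834 in Mrtfb, and a longer UTR has more places for a match. A match describes the letters only and is not a measured binding site.

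The matches of Myocd and of Klf4, the members that hold one to each arm, and the TACTTGA matches of Mef2c and Mrtfb are printed below with the match in capitals and 8 bases on each side, in the direction of the transcript. All lie in the last exon, within the 3′ UTR. In Myocd, exon 13 of 13, the matches start 459 and 786 bases after the stop codon. The printed stretches are chr11:65177971-65177994 and chr11:65177645-65177667 on the reverse strand. In Klf4, exon 5 of 5, the printed stretches are chr4:55527861-55527884 and chr4:55527806-55527828 on the reverse strand. Those of Mef2c, exon 11 of 11, and Mrtfb, exon 15 of 15, are chr13:83664186-83664208 and chr16:13416812-13416834 on the forward strand.
Myocd, miR-26b-3p match: gtggaaggAGAACAGAgcctctgc
Myocd, miR-26b-5p match: aggtgagaACTTGAAtcacagaa
Klf4, miR-26b-3p match: aaaatcacAGAACAGAtggggtct
Klf4, miR-26b-5p match: caaatccaACTTGAAcatgcccg
Mef2c, miR-26b-5p match: acctgcttTACTTGAtggataag
Mrtfb, miR-26b-5p match: atcaaaagTACTTGAcctcaaga

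The CArG box was searched by its standard pattern, which reads alike on both strands, in RefSeq promoters from 250 bases before to 50 bases after each gene start (GRCm38.p6). Promoters were listed for 8 of the 11 members, not for Myocd, Klf5 or Gata6. Srf was the only one of the 8 with a match, and it held 2, 82 and 62 bases before its start. The stretches printed below are chr17:46556225-46556254 and chr17:46556205-46556234 on the reverse strand. All coordinates of this paragraph include the bases printed on each side of the box. Of all 11190 genes tested with a promoter, 1.59% held a match. Among the target genes described below, 3 of 19 contractile, 3 of 12 actin cytoskeleton and 1 of 8 immediate early genes with a promoter did. The boxes of Srf are printed with the box in capitals and 10 bases on each side, next to those of Myl9, a light chain of smooth muscle myosin (chr2:156775293-156775322, forward strand), and Egr2, an immediate early zinc finger factor (chr10:67537787-67537816, forward strand).
Srf, first box: ctggggctcgCCATATAAGGagcggcctcg
Srf, second box: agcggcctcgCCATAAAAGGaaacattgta
Myl9: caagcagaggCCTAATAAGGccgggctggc
Egr2: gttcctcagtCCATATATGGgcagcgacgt

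Myocd is the coactivator restricted to smooth and cardiac muscle, and its levels were among the values used to pick the members. Its level was 72.8 CPM in M2626, 90.4 CPM in M2627 and 142.0 CPM in M2628, the miRNA-26b-/- libraries. Among miRNA-26b+/+ mice it reached 210.5 CPM in M2629, 199.5 CPM in M2630 and 184.4 CPM in M2631. All 3 miRNA-26b-/- libraries lay below all 3 miRNA-26b+/+ libraries. The means were 101.7 ± 36.0 and 198.1 ± 13.1 CPM (SD, n = 3 each), so that the miRNA-26b-/- mean was 51.4% of the miRNA-26b+/+ mean. The log2 fold change was -0.96 ± 0.20 (SE). The spread also differed, with a coefficient of variation of 35.4% among miRNA-26b-/- and 6.61% among miRNA-26b+/+ mice. The sum of Schwann cell markers was higher in all 3 miRNA-26b-/- libraries (350.3 to 494.1 CPM, against 238.9 to 305.5), and its part in the Myocd values was not tested. In a bulk sample, fewer cells of a type and less RNA per cell cannot be told apart.

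The size of the Myocd difference depended on M2628, whose level was closest to the miRNA-26b+/+ mice. Without it the log2 fold change was -1.27, and without M2626, the lowest library, it was -0.78. It was negative under all 15 alternative settings. The gene (ENSMUSG00000020542) lies at chr11:65176561-65269989 on the reverse strand of GRCm38, and no other annotated gene overlaps its exons. Between 1865 and 6459 reads per library stand behind these values, so counting error is small beside the spread between mice.

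The 2 myocardin-related factors are expressed more widely than Myocd. Mrtfa was at 23.6, 33.1 and 25.2 CPM in M2626, M2627 and M2628 and at 31.2, 48.4 and 33.8 CPM in M2629, M2630 and M2631. The groups overlapped because M2627 lay above M2629. Its log2 fold change was -0.45 ± 0.25 (SE), and -0.23 without M2630, its highest library. Mrtfb was at 26.3, 32.4 and 67.5 CPM in the miRNA-26b-/- libraries and at 42.6, 52.9 and 43.3 CPM in the miRNA-26b+/+ libraries. M2628 held the highest Mrtfb level of all 6 libraries and M2626 and M2627 the lowest ones. The log2 fold change of Mrtfb, -0.13 ± 0.29 (SE), turned to 0.09 without M2626 and reached -0.64 without M2628, so its direction rested on single libraries.

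Srf, the DNA-binding partner of these coactivators, was at 103.7, 125.2 and 101.7 CPM in M2626, M2627 and M2628 and at 114.8, 120.7 and 175.7 CPM in M2629, M2630 and M2631. One library, M2631, stood above the rest, and the other 5 overlapped. The log2 fold change was -0.31 ± 0.19 (SE) with all libraries and -0.10 without M2631. Elk1, the ternary complex factor, was at 23.4, 19.9 and 22.3 CPM in the miRNA-26b-/- libraries. Among miRNA-26b+/+ mice it was at 28.5, 33.9 and 28.5 CPM, and the groups did not overlap. Its mean was 72.2% of that in miRNA-26b+/+ mice and its log2 fold change -0.47 ± 0.24 (SE), between -0.53 and -0.38 when each library was left out in turn and -0.32 without M2627 and M2630 together. Of the exon bases of Elk1, 1.41% also belong to Uxt on the same strand, and reads there were counted for both genes.

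**Figure D1:**
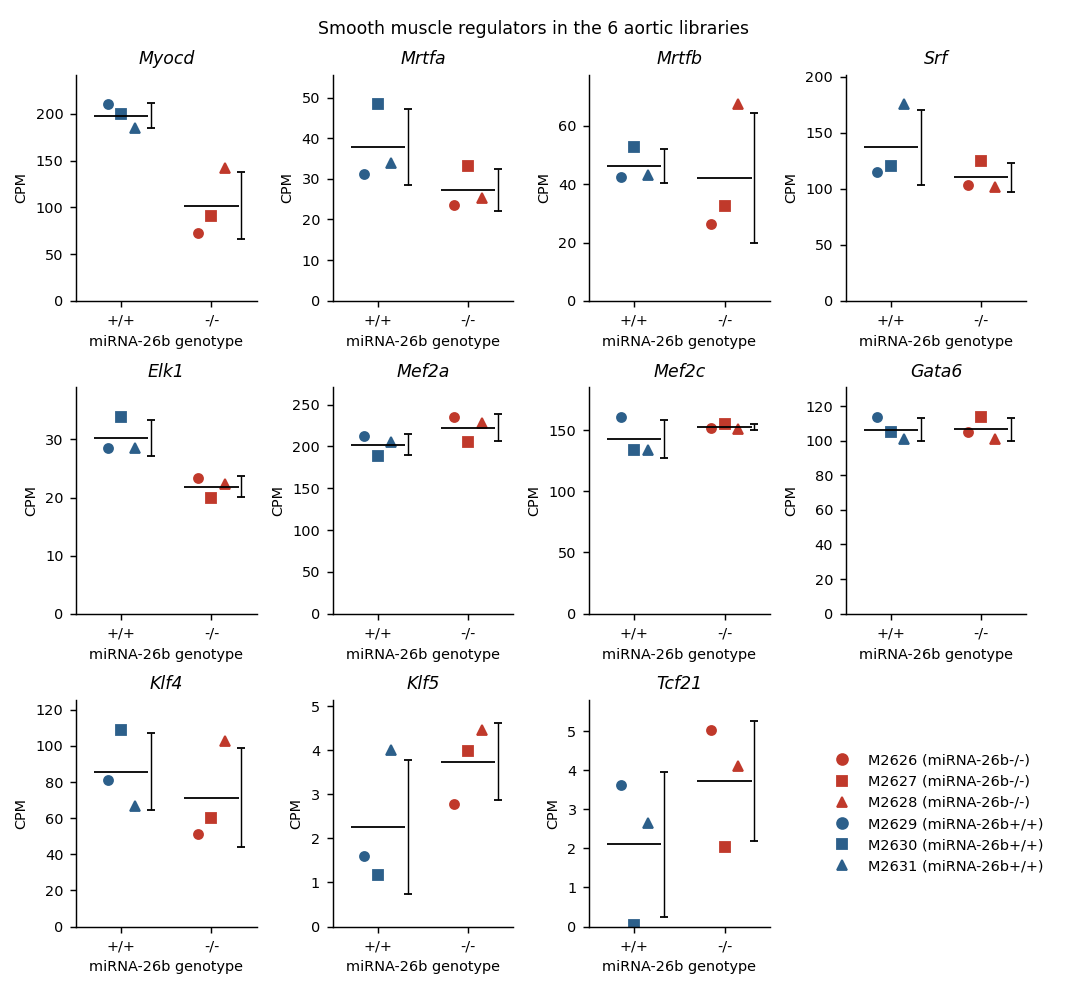
Level of each regulator in CPM (y axes, from 0) in the miRNA-26b+/+ (blue) and miRNA-26b-/- (red) libraries, with the mean as a horizontal line and the SD (n = 3) as a bar beside it. In Myocd and Elk1 every red point lies below every blue one, and in the other 9 panels the groups overlap.

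MEF2A and MEF2C are MADS-box factors related to SRF that act on muscle genes. Mef2a was at 235.3, 204.9 and 227.7 CPM in M2626, M2627 and M2628 and at 212.4, 188.0 and 205.7 CPM in M2629, M2630 and M2631. Mef2c was at 151.7, 155.1 and 150.9 CPM in the miRNA-26b-/- libraries and at 160.7, 133.6 and 133.6 CPM in the miRNA-26b+/+ libraries. Both genes overlapped between the groups, with log2 fold changes of 0.14 ± 0.14 and 0.10 ± 0.15 (SE). GATA6, a zinc finger factor of the vessel wall, had the least variation of the 11 members. Gata6 lay between 100.8 and 113.8 CPM in all libraries, and its highest level was 1.13 times its lowest. Its log2 fold change was 0.00 ± 0.15 (SE).

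Klf4 and Klf5 are zinc finger factors linked to the loss of contractile gene expression, and they lay at very different levels. Klf4 was at 51.4, 60.0 and 102.7 CPM in M2626, M2627 and M2628 and at 81.1, 108.9 and 66.9 CPM in M2629, M2630 and M2631. Within the miRNA-26b-/- group M2628 stood apart, as it did for Mrtfb. The log2 fold change was -0.26 ± 0.25 (SE), ranged from -0.61 without M2628 to -0.05 without M2630, and was 0.07 without M2627 and M2630 together. Klf5 was read 71, 134 and 126 times in the miRNA-26b-/- libraries and 49, 32 and 121 times in the miRNA-26b+/+ libraries, which is between 1.16 CPM in M2630 and 4.46 CPM in M2628. M2631 placed the miRNA-26b+/+ group across the other one, and without it the log2 fold change of 0.73 ± 0.69 (SE) was 1.43.

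Tcf21, a basic helix-loop-helix factor, was read 129, 68 and 116 times in the miRNA-26b-/- libraries and 111, 1 and 80 times in M2629, M2630 and M2631. These counts correspond to 5.03, 2.02 and 4.11 CPM and to 3.62, 0.0364 and 2.64 CPM. The groups overlapped, and M2630, with 1 read, stood apart. The log2 fold change was 0.73 ± 0.79 (SE), ranged from 0.20 without M2630 to 1.36 without M2629, and was 1.91 with limma voom. Summed over 6 fibroblast markers, M2630 was at 2590 CPM, within the range of the other libraries (1960 to 3437 CPM). The part of fibroblast RNA in the Tcf21 counts was not tested.

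**Figure D2:**
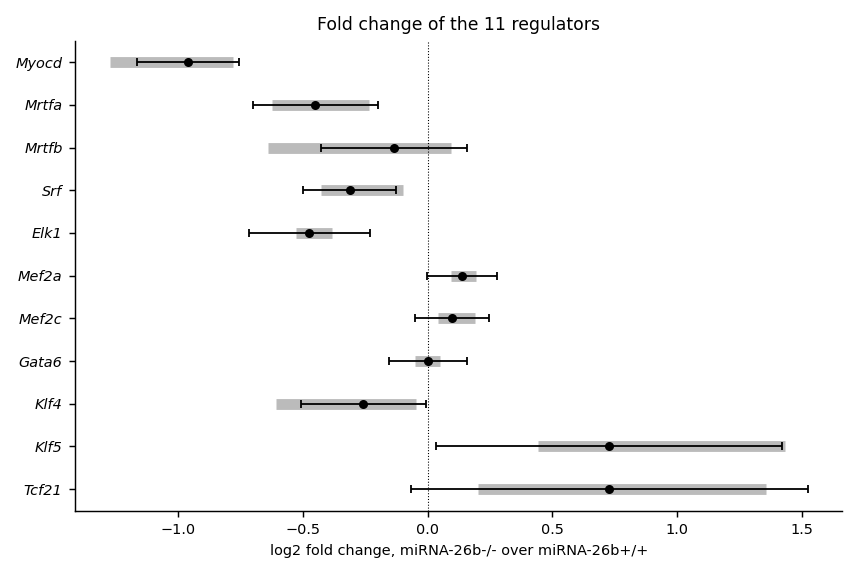
Log2 fold change of each regulator between the genotypes (x axis), with points for the value from all 6 libraries, black bars for its SE and grey bars for the range when each library is left out in turn. The grey bar lies wholly below 0 for Myocd, Mrtfa, Srf, Elk1 and Klf4 and crosses 0 for Mrtfb and Gata6.

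Over the 11 members, 6 log2 fold changes were below 0, where 48.6% of all genes tested were, and 5 above, with a median of -0.13 against 0.01 over all genes tested. By edgeR's quasi-likelihood test 1 member, Myocd, had an unadjusted p-value under 0.05, where 6.46% of all genes tested did (3.4% higher and 3.07% lower in miRNA-26b-/-). After Benjamini-Hochberg adjustment 0 members and 1 gene of all (0.00624%) passed. With DESeq2, or without M2628, 1 member, again Myocd, passed after adjustment, and with limma voom 0 members did. The groups did not overlap in 2 members, both lower in miRNA-26b-/-, where 11.5% of all genes tested did not overlap (5.65% higher and 5.88% lower). Myocd was among the values used to pick the members, so nothing is read from these counts. The other 10 members gave 0 calls before adjustment.

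Compared per kilobase of exon over all 6 libraries, the members ran from Srf to Klf5. Srf averaged 42.7 CPM per kb, Klf4 25.8, Myocd 23.3, Gata6 16.4 and Mef2a 14.5. Mef2c followed at 9.39 CPM per kb, Mrtfa at 5.32, Mrtfb at 4.91 and Elk1 at 4.85. Tcf21 at 1.24 and Klf5 at 0.576 CPM per kb came last. Srf was above Klf4, Mef2a above Mef2c, Mef2c above Mrtfa and Elk1 above Tcf21 in 6 of 6 libraries. The neighbours Klf4 and Myocd, and Myocd and Gata6, kept that order in 4 of 6 libraries only, and Mrtfb was above Elk1 in 1 of 6. The place of Myocd in this order differed between the genotypes. Per kilobase it averaged 30.8 ± 2.04 CPM in miRNA-26b+/+ mice, next to Klf4 at 28.1 ± 7.01, and 15.8 ± 5.60 in miRNA-26b-/- mice, next to Gata6 at 16.4 ± 1.02 (SD, n = 3 each). Mrtfa, Mrtfb and Elk1, whose levels lie close together, also changed places between the group means.

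The genes downstream and upstream of these regulators were taken as 5 lists with 99 genes, of which 97 passed the filter. Before adjustment 6 of the 97 differed, 2 higher and 4 lower in miRNA-26b-/- mice, which is 6.19% against the 6.46% of all genes tested. None of them passed after adjustment, the smallest adjusted p being 0.731 (edgeR's quasi-likelihood test, Benjamini-Hochberg). None did with DESeq2 or limma voom either. These gave 8 and 9 calls before adjustment, where 5.28% and 5.29% of all genes tested were called. Without M2628, 3 pathway genes, 1 member and 82 of all genes passed after adjustment. With all 6 libraries the median log2 fold change of the 97 pathway genes was -0.06.

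The contractile targets of SRF and myocardin are the genes through which the pathway is usually read. All 25 were tested, and 1, Pgm5, which codes for a protein of adhesion plaques in smooth muscle, differed before adjustment. Pgm5 averaged 319.7 ± 16.1 CPM without miRNA-26b, against 399.1 ± 45.5 CPM with it (SD, n = 3 each). On the log2 scale the difference was -0.32 ± 0.14 (SE, edgeR adjusted p = 0.740). The call before adjustment was lost without M2626, M2627, M2630 or M2631, which left 0 called contractile genes. Without M2628 there were 4, 1 higher and 3 lower, where 10.8% of all genes tested were called. The values of 19 of the 25 genes were lower and of 6 higher in miRNA-26b-/- mice, and the median log2 fold change was -0.08, against 0.01 over all genes tested. The 3 genes of highest level per kilobase were Acta2 (smooth muscle actin), Tagln (transgelin, an actin-binding protein) and Myl9, with log2 fold changes of -0.05 ± 0.12, 0.01 ± 0.14 and 0.13 ± 0.18 (SE).

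The summed level of the 25 contractile targets was 61298, 54544 and 49092 CPM in M2626, M2627 and M2628, and 53662, 55012 and 64409 CPM in M2629, M2630 and M2631. The groups overlapped, and M2628 was the lowest of all libraries. Within each genotype the 3 sums and the 3 Myocd levels ran in opposite orders, with M2626 and M2631 holding the lowest Myocd level and the highest contractile sum of their groups. Acta2, Tagln and Myh11 made up most of each sum, so it does not speak for every target. With 3 libraries per genotype nothing is read from these orders. In 4 contractile genes the groups did not overlap, all lower in miRNA-26b-/-, which is 4 of 25 against 11.5% of all genes tested. They were Cald1 (caldesmon), Jph2 (junctophilin), Ppp1r12b (a subunit of myosin phosphatase) and Pgm5, and the log2 fold changes of the first 3 were -0.07, -0.23 and -0.17.

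**Figure D3:**
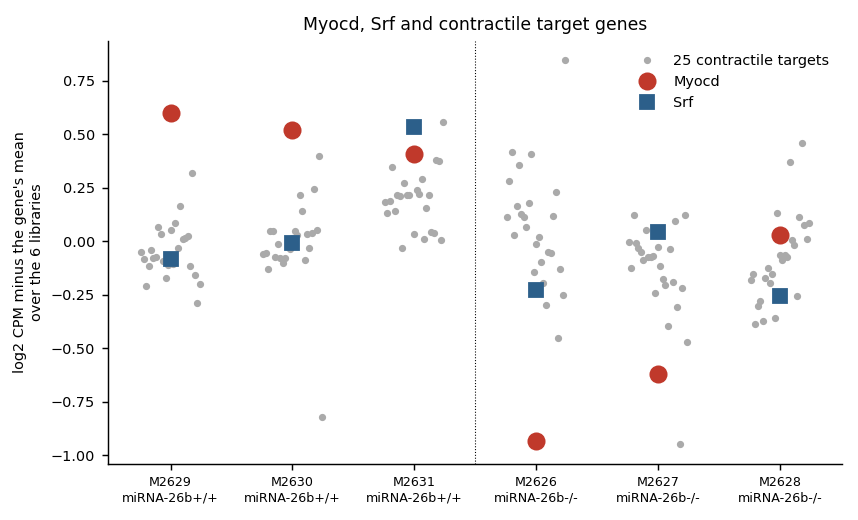
Log2 CPM of Myocd (red circles), Srf (blue squares) and the 25 contractile targets (grey points) in each library, each minus its own mean over the 6 libraries (y axis, log2 units). Myocd lies above its mean in the 3 miRNA-26b+/+ libraries, near it in M2628 and lowest in M2626, while the contractile targets scatter around 0 in both groups, mostly above it in M2631, where Srf is highest.

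The cytoskeletal targets, which the myocardin-related factors control in many cell types, gave 0 calls before adjustment among 16 genes with edgeR, 1 with DESeq2 and 2 with limma voom. They had a median log2 fold change of -0.03. Their 3 genes of highest level per kilobase were Ccn2 (connective tissue growth factor), Flna (filamin) and Actb, with log2 fold changes of -0.21 ± 0.16, -0.20 ± 0.12 and 0.01 ± 0.12 (SE). The lowest value of this list, -1.93 for Tuft1, came from a gene at or below 1.49 CPM in every library and listed at 0 in 3 of them.

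The immediate early targets, on the ELK1 side of the network, had the lowest median of the 5 lists, -0.22. Before adjustment 3 of 12 genes differed (25%, against 6.46% of all genes tested). All 3 were lower in miRNA-26b-/- mice, as were 3.07% of all genes tested. That count was 1 without M2626 or M2627 and 2 without M2630, of which 1 was higher. It was 5 without M2631, where 4.36% of all genes tested were called. With DESeq2, limma voom or the earlier quasi-likelihood method of edgeR it was 2. Arc, which codes for a cytoskeletal protein best known from neurons, was at 4.33, 9.44 and 3.54 CPM in M2626, M2627 and M2628. In M2629, M2630 and M2631 it was at 19.3, 16.9 and 11.8 CPM. The groups did not overlap, and the log2 fold change was -1.41 ± 0.43 (SE, edgeR adjusted p = 0.734). Junb, a subunit of AP-1, was at 26.4, 27.6 and 58.2 CPM in the miRNA-26b-/- libraries and at 58.0, 85.2 and 52.4 CPM in the miRNA-26b+/+ libraries. Egr2 was at 2.34, 1.34 and 5.56 CPM in the first group and at 5.44, 12.7 and 6.05 CPM in the second. In both genes M2628 reached the miRNA-26b+/+ range and M2626 and M2627 did not. Their log2 fold changes were -0.80 ± 0.29 and -1.40 ± 0.62 (SE, edgeR adjusted p = 0.736 and 0.747). The 3 genes of highest level per kilobase did not share this direction, with 0.07 ± 0.21 for Dusp1 (a MAP kinase phosphatase), 0.02 ± 0.16 for Mcl1 (a BCL2 family protein) and 0.26 ± 0.31 for Fos (an AP-1 subunit).

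Without M2627 and M2630 together, the log2 fold changes of Junb and Egr2 were -0.37 and -0.51, while that of Arc stayed between -2.03 and -1.15 under all alternatives. Left out one at a time, the libraries gave a range from -1.26 to -0.56 for Junb and from -2.16 to -0.93 for Egr2. Both genes lost the call before adjustment without M2626, M2627 or M2630, and Egr2 also with DESeq2, limma voom and the earlier quasi-likelihood method.

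The other transcription factors of smooth muscle were represented by 24 tested genes. Of these, 1 differed before adjustment, Heyl, a Notch target that acts as a repressor. It was at 443.4, 429.3 and 283.4 CPM in M2626, M2627 and M2628 and at 243.2, 249.6 and 275.4 CPM in M2629, M2630 and M2631. All miRNA-26b-/- libraries lay above all miRNA-26b+/+ libraries, M2628 by the smallest margin, and the log2 fold change was 0.59 ± 0.17 (SE, edgeR adjusted p = 0.731). Klf2, a flow-responsive factor of endothelium, and Wwtr1, the Hippo effector TAZ, were the other two of highest level per kilobase, at -0.21 ± 0.22 and 0.14 ± 0.16 (SE).

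Among 20 upstream regulators of SRF and MRTF activity, 1 differed before adjustment, Mapk7, the MAP kinase ERK5, which phosphorylates MEF2 factors. It was at 35.1, 29.6 and 24.0 CPM in M2626, M2627 and M2628 and at 19.3, 15.6 and 15.4 CPM in M2629, M2630 and M2631, without overlap. The log2 fold change was 0.81 ± 0.27 (SE, edgeR adjusted p = 0.736). Without M2627 and M2630 together the call of Mapk7 was lost, as was that of Heyl. Rhoa, the GTPase upstream of actin polymerisation, had a log2 fold change of -0.07 ± 0.14 (SE). With DESeq2 and with limma voom 2 genes of this list were called, 1 of them lower in miRNA-26b-/- mice. Cnn2 (calponin 2) was at 0.10 ± 0.17 and Mical2, an oxidase that removes nuclear actin from MRTF-A, at -0.18 ± 0.13 (SE).

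**Figure D4:**
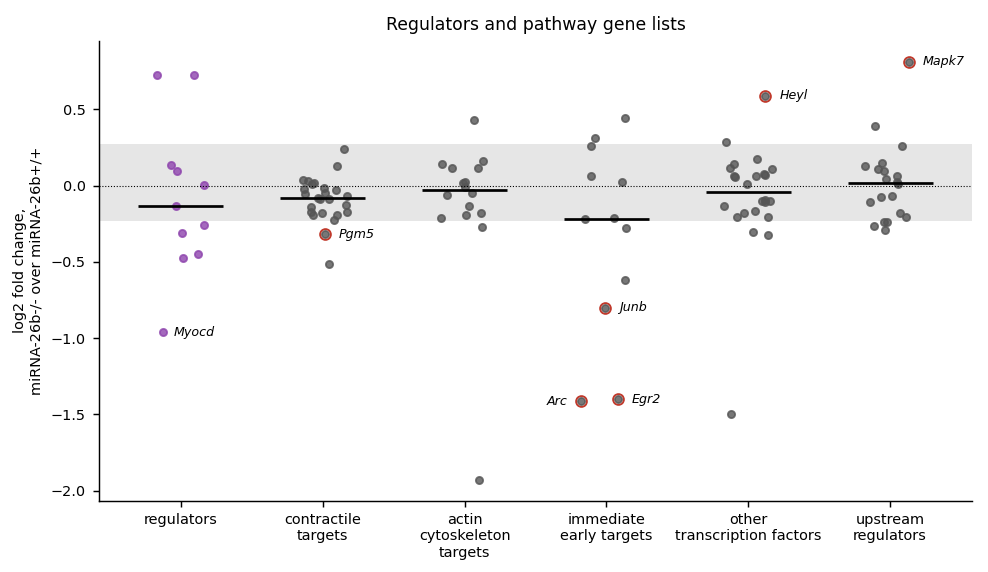
Log2 fold change between the genotypes (y axis) of the 11 regulators (purple) and of the tested genes of 5 pathway lists (grey), with a line at each list's median, red rings and names for pathway genes with an unadjusted p-value under 0.05, and a grey band for the middle 50% of all genes tested. Medians run from -0.22 in the immediate early targets to 0.02 in the upstream regulators, and Myocd is the lowest of the regulators at -0.96.

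Markers of other cells in the vessel wall varied between the libraries and moved with some members. The summed level of 8 endothelial markers was 474.7 CPM in M2626, 501.4 in M2627 and 1710 in M2628, and 1183, 1612 and 1456 CPM in M2629, M2630 and M2631. In this sum M2626 and M2627 lay below the other 4 libraries, the same pair that was lowest in Klf4, Mrtfb, Junb and Egr2. Pecam1 and Vwf made up most of the sum. Singly, Pecam1, Vwf, Cdh5, Tek and Emcn were lowest in this pair, and Erg, Cldn5 and Kdr were not. Kdr was lowest in M2628, at 8.82 CPM, against 22.0 in M2626 and 29.6 in M2627. None of the 8 markers was at 0 in any library, and 7 of the 8 had a negative log2 fold change, with 1, Tek, an endothelial receptor kinase, past an unadjusted p-value under 0.05. Klf4 is also expressed by endothelium, and the part of endothelial RNA in its level, and in that of Mrtfb, Junb and Egr2, was not tested. Myocd was lowest in the same libraries M2626 and M2627, and the part of endothelial RNA in its level was not tested.

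The sum of 8 cardiac muscle markers ranged from 19.2 to 385.1 CPM in miRNA-26b-/- and from 35.0 to 327.7 CPM in miRNA-26b+/+ libraries, with M2627 and M2630 highest. Cardiac muscle expresses Myocd as well. Without both of those libraries, a setting added after seeing the data, the log2 fold change of Myocd was -0.87. The part of cardiac muscle RNA in the Myocd level was not tested. Schwann cell markers, which stand for the nerve fibres of the adventitia, moved with Myocd in the opposite direction. Their sum over 6 genes was 494.1, 485.1 and 350.3 CPM in M2626, M2627 and M2628 and 238.9, 251.5 and 305.5 CPM in M2629, M2630 and M2631, without overlap. All 6 had an unadjusted p-value under 0.05, where 3.4% of all genes tested were called higher in miRNA-26b-/- mice. Of 8 skeletal muscle markers 7 were also called higher, with a sum of 8.39 to 97.0 CPM in miRNA-26b-/- and 2.18 to 11.9 CPM in miRNA-26b+/+ libraries. These levels are low, with 5 of the 8 markers at 0 in M2628 and 5 or 6 at 0 in each miRNA-26b+/+ library. Tnnc2, Pvalb, Myh4 and Myh1 were called although M2628 was at 0, so their calls rested on M2626 and M2627. The part of cardiac, Schwann and skeletal muscle cells in the levels of the other members was not tested either.

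The sum of 6 smooth muscle markers ranged from 31085 to 39518 CPM in miRNA-26b-/- and from 34053 to 41966 CPM in miRNA-26b+/+ libraries, and these ranges overlapped. Fibroblast markers ranged from 1960 to 3437 CPM in miRNA-26b-/- and from 2554 to 2661 CPM in miRNA-26b+/+ libraries, and macrophage markers from 158.4 to 506.5 and from 283.7 to 335.2 CPM. Sums for adipocytes (219.5 to 921.3 CPM), erythroid cells (85.6 to 929.1 CPM) and sympathetic neurons (10.03 to 222.5 CPM) also overlapped between the groups. Of 5 tested sympathetic markers 2, Th and Tubb3, were called higher in miRNA-26b-/- mice, where 3.4% of all genes tested were. Both calls rested on M2627. Th was at 37.0 CPM there and at 0 in M2626 and M2628. Tubb3 was at 49.9 CPM there and at 0.546 and 1.56 CPM in M2626 and M2628.

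**Figure D5:**
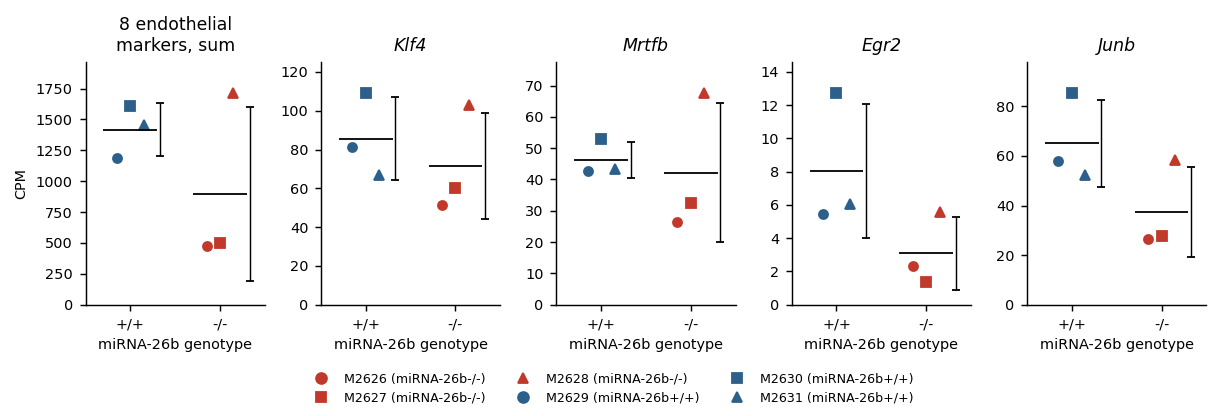
Summed level of 8 endothelial markers and levels of Klf4, Mrtfb, Egr2 and Junb (CPM, y axes from 0) in the miRNA-26b+/+ (blue) and miRNA-26b-/- (red) libraries, with the mean as a line and the SD (n = 3) as a bar. M2626 and M2627 are the 2 lowest libraries in all 5 panels, and M2628 lies within or above the miRNA-26b+/+ range.

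The genes with a pattern most like Myocd over the 6 libraries were sought among 11675 genes with a mean of at least 5 CPM, by the root mean square difference of log2 CPM minus each gene's mean. The closest were Nlk at 0.14, Nbeal2 at 0.15, Gm35853 at 0.16 and 4933428G20Rik and Eef1akmt2 at 0.17. None of the contractile targets was among them. For Elk1, the member with the next largest absolute log2 fold change at that mean level, the closest were C87436 and Tmem45a at 0.05, H2-Q4 at 0.06 and Eps15 and Mon1b at 0.07. With 6 libraries and many genes some close matches are found for any pattern, so these are descriptions only.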

How the data were processed

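Aortic RNA of 6 mice was sequenced, each mouse giving its own library. Alignment was done by the authors with STAR on GRCm38 (mm10), and they deposited raw counts per gene name from featureCounts 1.6.4 (Subread, GENCODE vM21 exons). Strand was ignored there, and a read that overlapped several genes added to each. A second deposited table, with log2 CPM and the authors' own fold changes and p-values, was not used. Total counts per library were 25706728 to 33345037. The filter kept a gene if its counts summed to 2 or more and if 2 or more libraries exceeded 1 CPM. Counts were normalised by TMM (factors 0.982 to 1.015), and edgeR 4.0.16 (R 4.3.3) supplied the quasi-likelihood test (prior count 0.125, all 6 libraries, genotype as the only term), with Benjamini-Hochberg adjustment over all 16017 genes. CPM are TMM-scaled, and CPM per kb divide by the exon length in the count table. The procedure was run on simulated data with planted log2 fold changes of 2 in either direction. That is larger than the fold change of any member, so smaller changes were not tested in this way. The regulators, pathway lists, markers and tests were chosen with earlier results of these data known. Named genes are all members, from each pathway list those with an unadjusted p-value under 0.05 and the 3 of highest level per kilobase, the 5 genes closest in pattern to Myocd and to Elk1, and markers that moved with a member. Cald1, Jph2, Ppp1r12b, Tuft1, the tissue markers in the opening and single endothelial, skeletal muscle and sympathetic markers were named after their values were seen. Alternatives were RLE or library-size scaling, no filter or filterByExpr, a prior count of 2, DESeq2 1.42.0, limma 3.58.1 voom, the earlier quasi-likelihood method and each library left out. Leaving out M2627 and M2630 together was added after seeing the data.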

Additional observations from a re-analysis of the deposited data

How the results depend on the processing

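At an unadjusted p-value under 0.05, 1 of 11 members was called in all alternatives except 1. When each library was left out, 1 to 3 members were called, with 3 without M2628 (Myocd, Klf4 and Mrtfb, all lower in miRNA-26b-/-). Of all genes tested, 10.8% were called without M2628. Pathway genes called numbered between 3 and 14 of those tested when each library was left out, with 3 without M2626 or M2627 and 14 without M2628, and 3 without M2627 and M2630 together. Over all genes the range was 686 (without M2631, 4.36% of those tested) to 1692 (without M2628, 10.8%). Without M2627 and M2630 together the count was 607 (4%). After adjustment 1 member and 82 genes of all passed without M2628. With all libraries DESeq2 gave 1 member and 57 genes, edgeR 0 and 1, limma voom 0 and 3, and the earlier quasi-likelihood method 0 and 0. The cause of these differences was not tested. Of 165 fold changes of members under the alternatives, 2 differed from the reported value by more than the spread between mice. They were those of Klf5 without M2631 (1.43) and Elk1 without M2627 and M2630 (-0.32). This bar is wide for genes that vary between mice, so the count is no measure of stability. Mrtfb, reported at -0.13, ran from -0.64 to 0.14 within it, and Tcf21, reported at 0.73, from 0.20 to 1.91. Of 90 fold changes of the called pathway genes, 18 lost the call before adjustment, those of Pgm5, Egr2, Junb, Heyl and Mapk7, and 0 changed sign. No paired analysis was possible because the labels give the libraries no replicate numbers that the groups share. An exact permutation test over 3 against 3 mice cannot go below p = 0.1 for any single member, and Klf5 and Tcf21, with at most 134 reads in any library, have the least precise values.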
